A study of Mus musculus with 12 samples.

Results

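Chemokines are small secreted proteins that direct the movement of leukocytes, and they act through receptors of the G protein-coupled family on the responding cells. In liver injured by CCl4, a solvent that hepatocytes convert into a toxic radical, Kupffer cells, hepatocytes, stellate cells and endothelial cells are known sources of chemokines, and neutrophils and monocytes are the leukocytes they are best known for drawing into the tissue. The genes described here are those whose symbol in the GENCODE M21 annotation (GRCm38) starts with Ccl, Cxcl, Cx3cl, Ccr, Cxcr, Cx3cr, Ackr or Ccrl followed by a digit. The table of protein-coding transcripts listed 47 of them, 27 ligands and 20 receptors, among 14188 genes and 29883 transcripts. The annotation holds 59 protein-coding genes of these names. Of the 12 without a listed transcript, 9 are ligands (Ccl1, Ccl17, Ccl20, Ccl21b, Ccl26, Ccl27b, Ccl28, Cxcl3 and Cxcl15) and 3 are receptors (Ccr4, Ccr8 and Cxcr1).

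RNA was sequenced from the livers of 12 male mice, whose strain is C57BL/8 in the labels and C57BL/6J in the methods, and which were 6 weeks old when treatment began. All 12 mice received 2 intraperitoneal injections of CCl4 in corn oil per week and were killed in week 8. The 6 PZH mice were given Pien Tze Huang (PZH), a Chinese herbal preparation, by gavage at 0.25 mg per g of body weight once a day, and the 6 control mice were given water (agent "none" in the labels). No mouse without CCl4 was in the series, so the comparison was between injured livers with and without PZH. All directions rest on the group names of the table's columns, which no other value used here checks. For the same comparison the paper reports more upregulated than downregulated protein-coding transcripts. With at least a 2-fold change and an unadjusted P under 0.05, fewer genes were higher (1.52%) than lower (2.5%) in PZH here. These shares are of genes summed over transcripts, unlike the paper's counts of transcripts. Of all transcripts, 5.73% were higher and 14.0% lower in PZH by an adjusted p under 0.05, another criterion than the paper's. This difference in direction was not resolved. Values are FPKM, fragment numbers scaled to transcript length and to the size of the library, summed over the transcripts of a gene, and the recurring smallest step of these values implied about 26.8 to 42.8 × 10⁶ fragments per mouse. A gene was called when limma on log2(FPKM + 1) gave a Benjamini-Hochberg adjusted p under 0.05 over all genes. A fold change is on that scale, PZH minus control. The added 1 understates changes of low genes, most under about 1 FPKM but also at a few FPKM. Ccl5, with a mean of 2.2 FPKM, was at -0.83, and at -1.24 with 0.1 added instead.

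Chemokine ligands were lower in the PZH livers more often than their receptors. Of the 27 ligands, 16 fell (59.3%), 1 rose and 10 were not called, whereas among the 20 receptors 3 fell (15%), 0 rose and 17 were not called. Over all genes, 32.1% were lower and 12.7% were higher in PZH. The ligand share lay above that background and the receptor share below it. Listed transcripts all summed to at least 1.000047 FPKM over the mice. Cxcl2, Ccl11 and Ccl12 reached that sum only through control mice, so their falls are partly built into the listing. The background of all genes was listed in the same way. A mean under 1 FPKM, where this scale understates a change most, was found for 12 of the 20 receptors and 9 of the 27 ligands. The low receptor share is therefore not read as a result about receptors. The median log2 fold change was -0.61 over the ligands, -0.11 over the receptors and -0.11 over all genes. The criterion of the methods, at least a 2-fold change and an unadjusted P under 0.05, was applied on this same scale. By it 8 ligands and 1 receptor were lower and none was higher, against 2.5% of all genes lower and 1.52% higher. When each mouse was scaled by the median ratio of its genes, the median of all genes moved to -0.00 and the genes called split into 2807 higher and 2739 lower, instead of 1798 and 4560. In that fit 15 ligands and 3 receptors were lower and 1 ligand and 1 receptor were higher.

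The FPKM summed over the 27 ligands was 122 to 162 in PZH mice, with a median of 136, and 178 to 320 in control mice, with a median of 227. The groups did not overlap. The most highly expressed ligands weigh most on the ligand sum, so it does not follow all ligands alike. Means in PZH and control mice were 6.60 and 43.8 for Cxcl1 and 16.5 and 41.4 for Ccl6. They were 33.3 and 33.8 for Ccl9 and 55.0 and 42.9 for Cxcl12. For the 20 receptors the sums were 20.6 to 30.0 and 23.8 to 35.8, and the groups overlapped. In bulk liver, fewer cells of a type and less RNA per cell cannot be told apart.

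**Figure D1:**
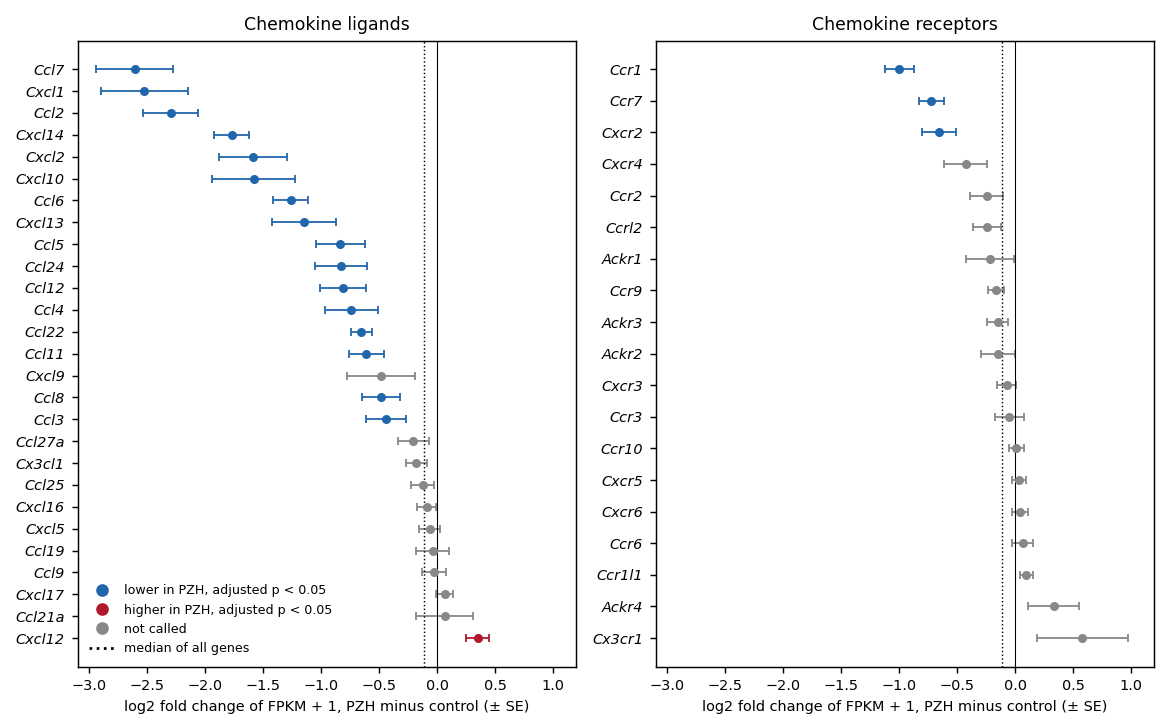
Log2 fold change of FPKM + 1, PZH minus control, with its standard error, for the 27 ligands (left) and 19 of the 20 receptors (right). Blue points are genes called lower, the red point is the gene called higher, grey points were not called, and the dotted line is the median of all genes at -0.11; the ligands spread from -2.61 to 0.35, while Ccr1 at -1.001 is the lowest receptor.

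Cxcl1, Cxcl2 and Cxcl10 were among the members that fell most, and their promoters carry a short motif that is shown here because its letters are the same in Cxcl1 and Cxcl2, which lie next to each other. The kappaB motif (GGGA, any 3 bases, TCC) is a form of the sequence bound by NF-kB, a transcription factor activated by inflammatory signals. RefSeq promoters (GRCm38.p6, 250 bases before to 50 after the start) were matched for 34 of the 47 members, which gave 40 promoters. On either strand the motif was found in 4.59% of all 32851 promoters and in 7 of the 40, namely those of Cxcl1, Cxcl2, Cxcl10, Ccl22, Ccr1, Ccr3 and Ccrl2. Of the 12 promoters of members that fell, 5 held it (41.7%), and of the other 28, which belong to 22 genes, 2 did (7.14%). These shares leave out 7 of the 19 members that fell, for which no promoter was matched (Ccl2, Ccl4, Ccl5, Ccl7, Ccl11, Ccl24 and Ccr7). The fallen members Cxcl14, Ccl6, Cxcl13, Ccl12, Ccl3, Ccl8 and Cxcr2 had matched promoters without the motif. Cxcl14, without the motif, was at -1.77, beside Cxcl2 at -1.59 and Cxcl10 at -1.58. With a pseudocount of 0.1 Cxcl2 (-4.09) fell more than Cxcl14 (-2.18), so this order depends on the scale. Whether the motif goes with the size of a fall was not tested. The sequences below run 5′ to 3′ towards the start, end before the start of the listed transcript, and have the motif in capitals. In Cxcl1 and Cxcl2 2 matches, 1 on each strand, overlap in the same 11 letters.
Cxcl1, chr5:90891065-90891240, plus strand: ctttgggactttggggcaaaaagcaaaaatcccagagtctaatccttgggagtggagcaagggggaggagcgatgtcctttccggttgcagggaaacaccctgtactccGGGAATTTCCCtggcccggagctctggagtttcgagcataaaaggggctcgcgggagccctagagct
Cxcl2, chr5:90903719-90903872, plus strand: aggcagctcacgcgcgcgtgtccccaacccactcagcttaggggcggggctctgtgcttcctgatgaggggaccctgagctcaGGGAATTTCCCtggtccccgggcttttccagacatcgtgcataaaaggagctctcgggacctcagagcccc
Cxcl10, chr5:92348890-92349069, minus strand: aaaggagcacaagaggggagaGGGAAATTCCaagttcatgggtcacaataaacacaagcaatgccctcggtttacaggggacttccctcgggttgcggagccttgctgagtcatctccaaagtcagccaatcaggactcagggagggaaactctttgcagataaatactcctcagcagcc
Ccr1, chr9:123968693-123968872, minus strand: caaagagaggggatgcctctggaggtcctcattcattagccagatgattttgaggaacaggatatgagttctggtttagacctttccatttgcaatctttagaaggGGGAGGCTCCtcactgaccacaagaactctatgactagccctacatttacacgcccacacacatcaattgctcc

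The promoter of Cxcl9, a neighbour of Cxcl10, held no match to the kappaB letters searched. Other forms of the NF-kB sequence were not searched, so a promoter without a match is not shown to lack a site. The AP-1 motif TGANTCA, bound by Fos and Jun proteins, was in 7.81% of all promoters and in 15% of the members' (Cxcl9, Cxcl10, Ccl9, Ccl27a, Ccr3 and Ccr1l1), 1 of the 12 promoters of members that fell (8.33%) and 5 of the other 28 (17.9%). The interferon response motif (GAAA, any 2 bases, GAAA) was in 3.44% of all promoters and in 7.5% of the members' (Cxcl10, Cxcl14 and Ccl19), 2 of the 12 (16.7%) and 1 of the other 28 (3.57%). These are matches of letters, and no binding was measured.

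Of the CXC ligands that act on neutrophils through Cxcr2, 2 of the 3 listed fell. Cxcl1 (chr5:90891241-90893115) was 4.08 to 15.8 FPKM in PZH mice, with a median of 4.80, and 18.9 to 76.6 in control mice, with a median of 41.1. The groups did not overlap, and PZH 3 lay above the other 5 PZH mice. Cxcl1 fell by 2.52 ± 0.38 (SE) on the log2 scale (adjusted p = 0.000201). Cxcl2 (chr5:90903871-90905938), which signals through the same receptor, was listed at 0 in 5 PZH mice and at 0.136 in PZH 2, and ran from 0.498 to 5.30 in control mice with a median of 2.53. Its log2 fold change was -1.59 ± 0.30 (adjusted p = 0.00088) and -4.09 with a pseudocount of 0.1, so its size depends on that choice. Cxcl5, another ligand of Cxcr2, was at 0 in 3 PZH and 2 control mice, did not exceed 0.362, and was not called (-0.07).

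The interferon-inducible ligands of Cxcr3, which draw activated T cells and NK cells, gave 1 that fell and 1 that was not called. Cxcl10 (chr5:92346638-92348889) was 1.596 to 4.32 FPKM in PZH mice, with a median of 2.93, and 4.25 to 29.5 in control mice, with a median of 9.56. The ranges met only at their ends. It fell by 1.58 ± 0.36 (adjusted p = 0.00333). Cxcl9 (chr5:92321347-92328079) was 2.37 to 8.76 in PZH and 4.24 to 13.3 in control mice, with medians of 3.56 and 5.56, and was not called (-0.48 ± 0.29, adjusted p = 0.199). The log2 ratio of Cxcl10 to Cxcl9 within a mouse averaged -0.54 ± 0.31 (SD) in PZH and 0.75 ± 0.73 in control mice. The pairs given as such ratios here were chosen after their values had been seen, so the ratios are descriptions without a test.

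**Figure D2:**
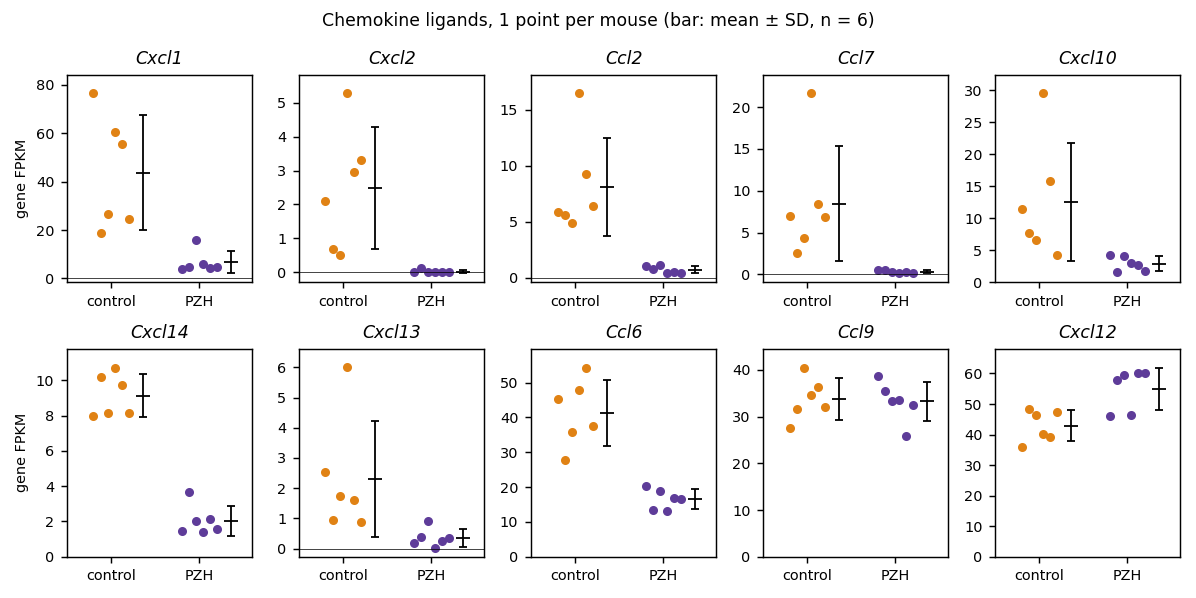
FPKM of 10 chemokine ligands in each mouse (orange, control; purple, PZH), with the mean ± SD of the 6 mice beside the points; each panel has its own linear axis. In Cxcl1, Cxcl2, Ccl2, Ccl7, Cxcl14 and Ccl6 each PZH mouse lies below each control mouse, Ccl9 overlaps, and Cxcl12 is higher in PZH.

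The remaining CXC and CX3C ligands, most of them homeostatic, gave both directions. Cxcl14 (chr13:56288643-56296551), made by epithelia and stroma, was 1.39 to 3.68 FPKM in PZH mice, with a median of 1.79, and 7.96 to 10.7 in control mice, with a median of 8.94. The groups did not overlap, with means of 2.04 ± 0.86 (SD) and 9.15 ± 1.22. It fell by 1.77 ± 0.15 (adjusted p = 1.06e-05). Cxcl13 (chr5:95956951-95961068), which attracts B cells through Cxcr5, was 0.0265 to 0.918 in PZH and 0.887 to 6.02 in control mice, with medians of 0.313 and 1.68, and fell by 1.15 ± 0.28 (adjusted p = 0.00469). The highest PZH mouse overlapped the lowest control mouse.

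Cxcl12 (chr6:117168535-117181367), the ligand of Cxcr4 and a retention signal for leukocytes and progenitor cells, was the member that rose and the most highly expressed ligand. It was 46.1 to 60.3 FPKM in PZH mice, with a median of 58.6, and 35.8 to 48.4 in control mice, with a median of 43.3. The groups overlapped at 46 to 48 FPKM. Its log2 fold change was 0.35 ± 0.10 (adjusted p = 0.0126), with means of 55.0 ± 6.84 and 42.9 ± 5.14. Cxcl16, a membrane-bound ligand of Cxcr6, had means of 5.33 and 5.74 FPKM (-0.09), Cx3cl1, the ligand of Cx3cr1, had 0.657 and 0.877 (-0.18), and Cxcl17, a mucosal chemokine, had 0.381 and 0.320 (0.06), in PZH and control mice. None of these 3 was called.

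The 4 listed CC ligands best known for attracting monocytes, Ccl2, Ccl7, Ccl8 and Ccl12, all fell. Ccl2 (chr11:82035571-82037453), the principal ligand of Ccr2, was 0.396 to 1.17 FPKM in PZH mice, with a median of 0.666, and 4.90 to 16.5 in control mice, with a median of 6.15. Ccl7 (chr11:82045712-82047525), its neighbour and another ligand of Ccr2, was 0.119 to 0.499 in PZH and 2.53 to 21.7 in control mice, with medians of 0.298 and 6.93. Neither gene overlapped between the groups, and in both the highest control mouse was Control 4. Ccl2 fell by 2.30 ± 0.23 (adjusted p = 2.28e-05) and Ccl7 by 2.61 ± 0.33 (adjusted p = 7.52e-05), the largest fold changes of a CC ligand. The ratio of the group means was 10.98 for Ccl2 and 27.0 for Ccl7, control over PZH. Within a mouse the log2 ratio of Ccl2 to Ccl7 averaged 1.29 ± 0.48 (SD) in PZH and 0.12 ± 0.55 in control mice, where the PZH values of Ccl7 are all under 0.5 FPKM.

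Ccl12, a further ligand of Ccr2, was listed at 0 in 4 PZH mice and did not exceed 0.262, against 0.257 to 2.28 FPKM in control mice, and fell by 0.81 ± 0.20. Ccl8 was at 0 in 2 PZH mice, did not exceed 0.633, and was 0.352 to 1.56 in control mice. Its change of -0.48 ± 0.16 (adjusted p = 0.0289) was lost in 5 of 19 other fits, where the adjusted p reached 0.0725.

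Ccl3, Ccl4, Ccl5, Ccl6 and Ccl9, CC ligands that act on monocytes, macrophages or T cells, split into 4 that fell and 1 that was not called. Ccl6 (chr11:83587882-83593087) was 13.1 to 20.3 FPKM in PZH mice, with a median of 16.6, and 27.9 to 54.3 in control mice, with a median of 41.4. The groups did not overlap and it fell by 1.26 ± 0.15 (adjusted p = 5.90e-05). Ccl9 (chr11:83572919-83578636), the adjacent gene and also a myeloid ligand of Ccr1, was 25.9 to 38.7 in PZH and 27.5 to 40.5 in control mice, with medians of 33.5 and 33.4. Its log2 fold change was -0.02 ± 0.10 (adjusted p = 0.877). The log2 ratio of Ccl6 to Ccl9 averaged -1.02 ± 0.30 (SD) in PZH and 0.27 ± 0.38 in control mice.

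Ccl5, a ligand of Ccr1 and Ccr3 made by T cells and macrophages, was 0.568 to 2.38 FPKM in PZH and 1.82 to 5.70 in control mice and fell by 0.83 ± 0.21. Ccl4, which attracts macrophages and T cells, was 0.349 to 1.42 in PZH and 0.813 to 4.27 in control mice and fell by 0.74 ± 0.23. Ccl3 (chr11:83647844-83649355), a ligand of Ccr1, was 0.427 to 1.28 and 0.826 to 2.76. It lay at the threshold (-0.44 ± 0.17, adjusted p = 0.0495) and lost the call in 11 of 20 other fits. All 3 overlapped between the groups.

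Both listed ligands of the eosinophil receptor Ccr3 that are grouped as eotaxins fell. Ccl11 was listed at 0 in 3 PZH mice and did not exceed 0.183, and was 0.169 to 1.29 FPKM in control mice (-0.61 ± 0.15, adjusted p = 0.00547). Ccl24 was 0.655 to 1.40 in PZH and 1.34 to 6.10 in control mice (-0.83 ± 0.22, adjusted p = 0.00874). Of the 5 listed CC ligands that act mainly on lymphocytes and dendritic cells, only Ccl22, a ligand of Ccr4, was called. It was 0.130 to 0.266 FPKM in PZH and 0.671 to 1.42 in control mice, without overlap, and fell by 0.65 ± 0.09 (adjusted p = 0.000104). Ccl25 (-0.13) and Ccl27a (-0.20) were expressed at means of 1.76 to 2.81 FPKM and were not called. Ccl19 (-0.04) and Ccl21a (0.06), the ligands of Ccr7, were at 0 in 4 and 3 mice of each group. Ccl19, Ccl21a and Ccl27a have near-identical copies in the mouse genome, so their values are uncertain.

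Over all 27 ligands, 7 had each PZH value below each control value (25.9%), against 17.9% of all genes, and 0 had each PZH value above, against 6.46%. The 7 were Cxcl1, Cxcl2, Cxcl14, Ccl2, Ccl6, Ccl7 and Ccl22. Of the receptors 2 did so, Ccr1 and Ccr7 (10%). Cxcl2 was listed only through its control values.

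The 9 listed CC receptors held 2 that fell. Ccr1 (chr9:123962124-123968692), carried by monocytes, macrophages and neutrophils, was 1.0 to 1.81 FPKM in PZH mice, with a median of 1.57, and 2.77 to 5.34 in control mice, with a median of 4.18. The groups did not overlap. Ccr1 fell by 1.001 ± 0.13 (adjusted p = 6.72e-05), with means of 1.51 ± 0.30 (SD) and 4.07 ± 0.93.

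Ccr7, which leads dendritic cells and naive T cells to lymphoid tissue, was 0.133 to 0.446 FPKM in PZH and 0.744 to 1.69 in control mice, without overlap, and fell by 0.72 ± 0.11 (adjusted p = 0.000206). Ccr2 (chr9:124101950-124113557), the receptor that marks inflammatory monocytes and the most highly expressed receptor here, was 3.01 to 5.58 in PZH mice, with a median of 5.26, and 4.65 to 6.84 in control mice, with a median of 5.42. It was not called (-0.25 ± 0.14, adjusted p = 0.168). Ccr3 was 0.516 to 1.39 in PZH and 0.574 to 1.36 in control mice, with medians of 0.737 and 0.884 (-0.05, not called). Ccr9, the receptor of Ccl25, had means of 0.549 and 0.733 FPKM (-0.16 ± 0.07, adjusted p = 0.0703). Ccr6, the receptor of Ccl20, Ccr10, the receptor of Ccl27a, and Ccr1l1, a paralog of Ccr1, had means under 0.25 FPKM in both groups and were not called (0.06, 0.01 and 0.10).

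**Figure D3:**
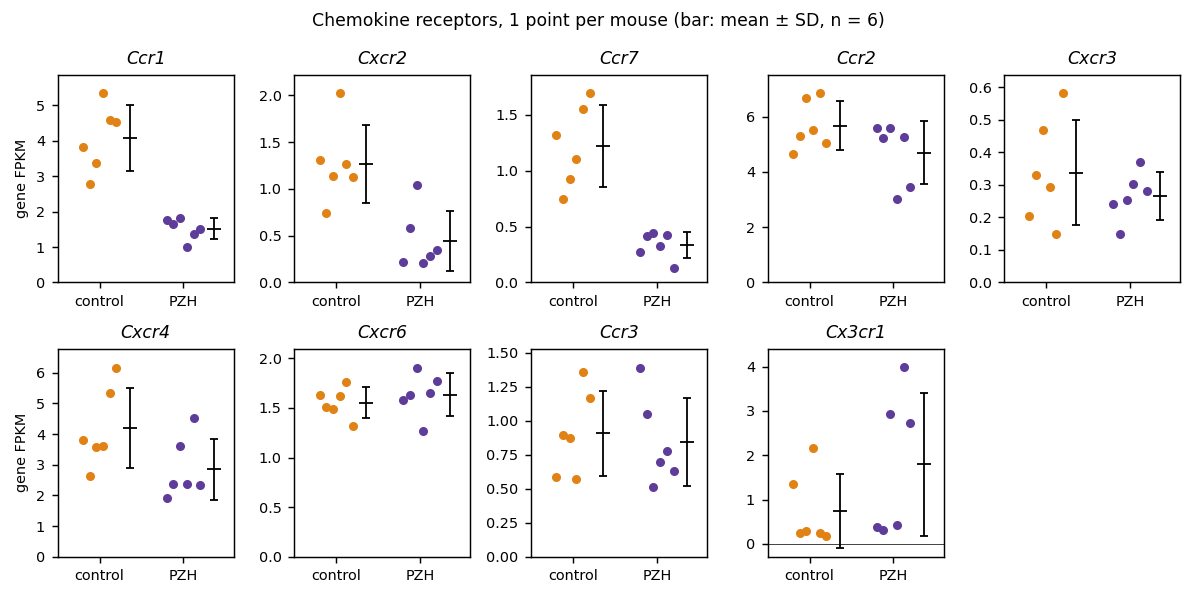
FPKM of 9 chemokine receptors in each mouse (orange, control; purple, PZH), with the mean ± SD of the 6 mice beside the points; each panel has its own linear axis. Ccr1 and Ccr7 separate the groups, Cxcr2 does so except for PZH 3 at 1.04 FPKM, and Ccr2, Cxcr3, Cxcr4, Cxcr6, Ccr3 and Cx3cr1 overlap.

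Among the 6 listed CXC and CX3C receptors, Cxcr2 alone was called. Cxcr2 (chr1:74153989-74161246), the neutrophil receptor of Cxcl1 and Cxcl2, was 0.210 to 1.04 FPKM in PZH mice, with a median of 0.312, and 0.741 to 2.02 in control mice, with a median of 1.2. The PZH mouse inside the control range was PZH 3, which was also the highest PZH mouse for Cxcl1. Cxcr2 fell by 0.66 ± 0.15 (adjusted p = 0.0029). Cxcr3 was 0.150 to 0.371 in PZH and 0.150 to 0.582 in control mice, with medians of 0.268 and 0.312 (-0.07). Cxcr4 (chr1:128588199-128592293), the receptor of Cxcl12, was 1.93 to 4.53 and 2.65 to 6.17, with medians of 2.38 and 3.72 (-0.43 ± 0.18, adjusted p = 0.074). Cxcr4 was called lower without Control 2 or without PZH 5.

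Cxcr5, the B cell receptor of Cxcl13, was 0.154 to 0.438 FPKM in PZH and 0.268 to 0.370 in control mice, with medians of 0.382 and 0.328 (0.04). Cxcr6, the receptor of Cxcl16 on NKT and T cells, was 1.27 to 1.91 and 1.31 to 1.76 (0.04). Cx3cr1, the fractalkine receptor of monocytes and resident macrophages, was 0.315 to 4.001 in PZH and 0.174 to 2.16 in control mice, with the widest range of the receptors among PZH mice, and was not called (0.58 ± 0.39).

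The 5 atypical receptors, which bind chemokines without classical G protein signalling and mostly clear or present them, were all left uncalled. Their log2 fold changes were -0.24 for Ccrl2, -0.21 for Ackr1, -0.15 for Ackr2, -0.15 for Ackr3 and 0.33 for Ackr4. Ackr3, the second receptor of Cxcl12, was 0.613 to 1.24 FPKM in PZH and 0.739 to 1.28 in control mice, with medians of 0.784 and 1.02. Ackr4, a scavenger of Ccl19, Ccl21 and Ccl25, was 0.812 to 3.27 and 0.937 to 2.08. Ccrl2, which presents chemerin, was 1.06 to 1.43 and 1.04 to 2.77 and was called lower only without Control 2.

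Ligands were set beside their receptors in 26 textbook pairs. In 5 pairs both fell, namely Cxcl1 and Cxcl2 with Cxcr2 and Ccl3, Ccl5 and Ccl6 with Ccr1. In 10 pairs the ligand fell and the receptor was not called, among them Ccl2, Ccl7 and Ccl12 with Ccr2, Ccl11 and Ccl24 with Ccr3, and Cxcl10 with Cxcr3. In 4 pairs the receptor fell and the ligand was not called, Cxcl5 with Cxcr2, Ccl9 with Ccr1, and Ccl19 and Ccl21a with Ccr7. Cxcl12 rose while neither Cxcr4 nor Ackr3 was called. In the other 5 pairs neither was called. A receptor that was not called is not shown to have stayed level.

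Several members lie near each other in the genome, and neighbours at most 2 Mb apart were grouped. Such a group can hold wide gaps: on chromosome 11, Ccl8 starts 79.6 kb and the next gene, Ccl5, 1490 kb from the first. The chromosome 11 group of 10 CC ligands held 9 that fell, and Ccl9, the exception, lies between Ccl5 and Ccl6. On chromosome 5, Cxcl1, Cxcl2 and Cxcl10 fell, and Cxcl5 and Cxcl9 did not pass the test. On chromosome 9, 1 of 9 receptors, Ccr1, fell, while its neighbours Ccr1l1, Ccr3 and Ccr2 were not called. The chromosome 4 group of Ccl27a, Ccl19 and Ccl21a held 0 called genes. Neighbouring genes share their surroundings, so these counts are not independent observations.

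**Figure D4:**
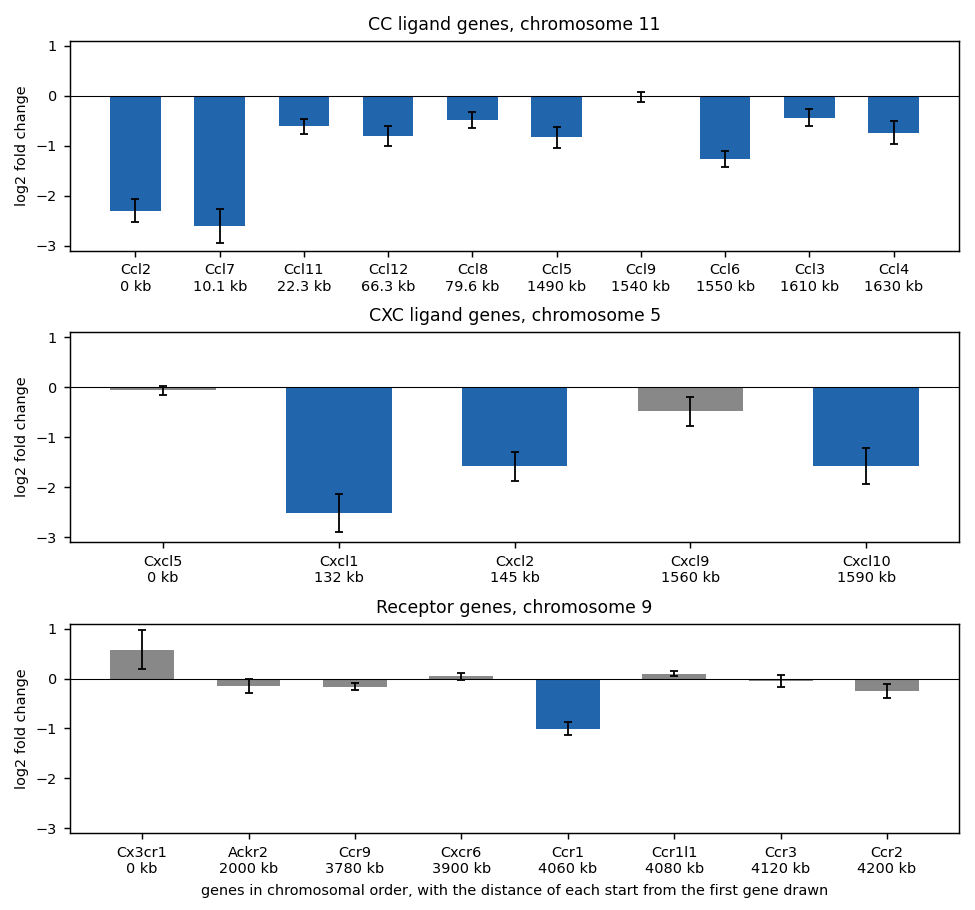
Log2 fold change (bars, ± SE) of neighbouring members in chromosomal order on chromosomes 11, 5 and 9, with the distance of each gene's start from the first gene in kb under its name; bars are in even steps, not to distance. Blue bars were called lower and grey bars were not called; Ccl9 at -0.02 stands between Ccl5 at -0.83 and Ccl6 at -1.26, and Ccr1 at -1.001 is alone among the receptors.

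At transcript level, 17 of the 71 listed member transcripts were lower (23.9%; 14 of 37 ligand and 3 of 34 receptor transcripts) and 0 were higher, against 14.0% lower and 5.73% higher of all transcripts. No transcript was called against its gene. Ccl3, Ccl8 and Cxcl12 were called as genes without a called transcript. For Cxcl12 both listed transcripts pointed the same way, with log2 fold changes of 0.33 (adjusted p = 0.0659) and 0.34 (adjusted p = 0.17). For some members the assignment of fragments to isoforms changed from mouse to mouse. The main Cxcl14 transcript was 1.56 FPKM in Control 2 and 7.96 to 9.87 in the other control mice, and a second Cxcl14 transcript was 8.62 in Control 2. The gene sums were steadier, and the main comparison rests on them.

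The members that fell did not do so equally in all mice. Over the 19 lower members, Control 4 had the highest control value in 13 and Control 2 the lowest in 8. Among PZH mice, PZH 3 had the highest value in 8 and PZH 4 the lowest in 9. The summed FPKM of the 19 was 28.8 in PZH 4 and 53.2 in PZH 3, the lowest and highest PZH mice, and 87.7 in Control 2 and 226 in Control 4. The lowest control mouse exceeded the highest PZH mouse, but the 19 were chosen as lower in these same mice, so this separation is no independent result. PZH 2, Control 2 and Control 3 were the mice most like the other group over all genes (mean correlations of 0.965, 0.967 and 0.964, against 0.941 to 0.956 for the other mice), and without these 3 mice 15 ligands and 3 receptors were lower and 1 ligand was higher.

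Genes of the same system outside the naming rule moved in both directions. Of 12 such genes 4 fell and 2 rose, shares close to the 32.1% and 12.7% of all genes. The risers were Dpp4 (0.86 ± 0.11), a protease that trims Cxcl12 and other chemokines, and Rarres2 (0.73 ± 0.12), which encodes chemerin. The 4 that fell were Pf4 (-0.51 ± 0.14), Cklf (-0.45 ± 0.11), Sdc4 (-0.43 ± 0.11) and Mif (-0.21 ± 0.08). All of these are named after their values were seen. Of 26 genes that carry signals from chemokine receptors, 13 fell and 1 rose, and the same 32.1% and 12.7% of all genes stand as background here and for the lists that follow. Of 22 listed inducers and regulators of chemokine genes, 15 fell and 0 rose, with the lipopolysaccharide co-receptor Cd14 at -2.73 ± 0.32, the cytokine Il1b at -1.55 ± 0.27, the NF-kB subunit Nfkb2 at -1.46 ± 0.19, the transcription factor Cebpb at -1.202 ± 0.19 and the interferon regulator Irf7 at -1.06 ± 0.21. Il6 and Ifng had no listed transcript.

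Markers of the cells that make or carry these genes were set beside them. Of 13 neutrophil markers 2 fell, Csf3r (-0.64) and Il1r2 (-0.71), both named after their values were seen. The median log2 fold change of the 13 was 0.12, and Ngp, a granule protein of immature neutrophils, was 0.327 to 17.8 FPKM in PZH and 0.115 to 0.2496 in control mice, without overlap, but was not called (1.16 ± 0.54, adjusted p = 0.0962). The summed FPKM of the 13 was 15.2 to 26.6 in 5 PZH mice, 179 in PZH 3 and 20.2 to 67.1 in control mice. PZH 3 was thus the highest mouse for neutrophil markers and the highest PZH mouse for Cxcl1 and Cxcr2. Of 18 monocyte and infiltrating macrophage markers, 8 fell and 4 rose, among them Chil3 (-1.62 ± 0.33), Plac8 (-1.11 ± 0.23) and Gpnmb (1.17 ± 0.22), and their sums overlapped at 519 to 784 in PZH and 508 to 762 in control mice. That list includes the members Ccr2 and Cx3cr1. Its most highly expressed genes, which weigh most on the sums, were Lyz2, F10 and Spp1. F10, which rose, encodes coagulation factor X, and Spp1 is counted again among the cholangiocyte markers. The counts and sums of this list therefore do not follow infiltrating cells alone.

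Of 9 Kupffer cell markers 2 rose, Clec4f (0.60 ± 0.20) and Vsig4 (0.57 ± 0.13), and 1 fell, the scavenger receptor Marco (-2.21 ± 0.40). Of 12 T cell, 7 listed NK cell and 8 B cell markers, 0 were called. Of 9 dendritic cell markers 1 rose, and of 4 listed eosinophil markers 1 fell. In the tissue itself, 2 of 9 sinusoidal endothelial markers fell, and 1 of 5 listed cholangiocyte markers fell, Sox9 at -1.64 ± 0.11. Of 10 stellate cell and myofibroblast markers 4 fell and 2 rose. Those that fell were Timp1 at -2.13 ± 0.16, Acta2 at -0.92 ± 0.26, Hgf at -0.52 ± 0.13 and Des at -0.47 ± 0.12. The risers were Reln at 0.98 ± 0.19 and Col3a1 at 0.62 ± 0.18. Of 9 hepatocyte markers 3 rose (Alb at 0.68, Ttr at 0.68 and Apoa2 at 0.34) and 2 fell (Fgb at -1.17 ± 0.12 and Hnf4a at -0.30). Their sum was 45900 to 65300 FPKM in PZH and 29000 to 44200 in control mice, so the labelled tissue carried its defining markers. Alb weighed most on this sum. Markers in this paragraph with a change under 1 in size are named after their values were seen. The part of these markers in the chemokine results was not tested.

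**Figure D5:**
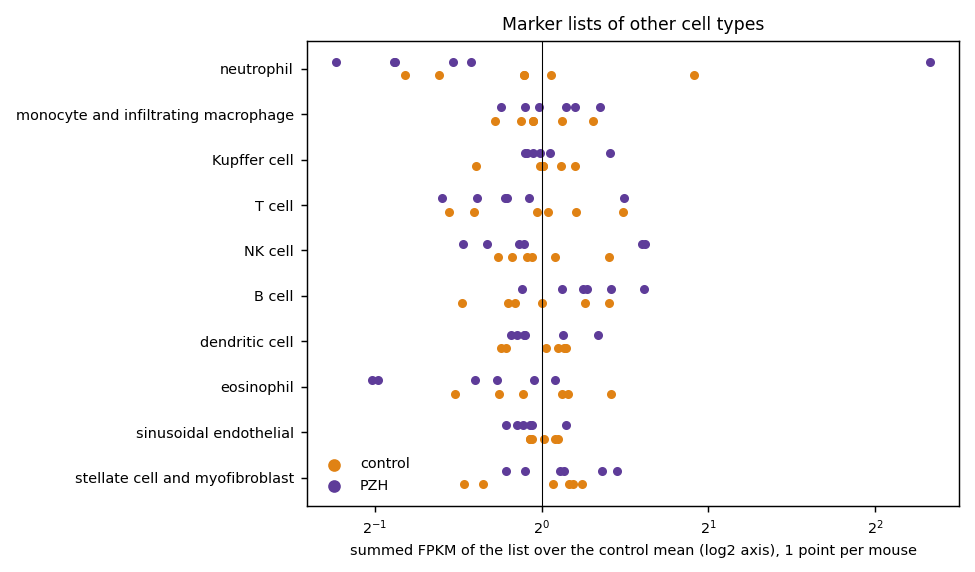
Summed FPKM of 10 of the 12 marker lists in each mouse (the hepatocyte and cholangiocyte lists are not drawn), divided by the mean of the 6 control mice, on a log2 axis (orange, control; purple, PZH). The groups overlap in each list drawn, and PZH 3 stands apart for neutrophil markers at 179 FPKM.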

How the data were processed

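Total RNA of 12 livers was sequenced after removal of ribosomal RNA, with a strand-specific kit. The authors trimmed the reads with Trimmomatic, aligned them to GRCm38 with HISAT2 2.1.0 and deposited FPKM per transcript from StringTie 1.3.5 with Ensembl release 95. The table of long noncoding transcripts was not used. Listed transcripts all summed to at least 1.000047 FPKM over the mice, so the listing is itself a filter on low values. A gene high in only 1 group can pass it through that group alone. Reads per gene were not recovered, so no counting interval is given.

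Transcripts were joined to GENCODE M21 (29876 of 29883 matched) and summed per gene. log2(FPKM + 1) was fitted with limma 3.58.1 in R 4.3.3, PZH against control, over all 14188 genes with Benjamini-Hochberg adjustment, and again over all transcripts. Log2 ratios of 2 members within a mouse are given without a test. The methods describe 12 separate mice, and the labels give no sequencing batch. No 2 mice had identical values, and their correlations across genes were 0.931 to 0.985.

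The members and the lists were chosen with earlier results of these data known. All listed members but 1, which is not reported here and stays in the counts, are named; values by mouse are given for called members with a log2 fold change of at least 1 in size, the 3 ligands and 3 receptors of highest mean FPKM and the receptors of called ligands. Of other lists, called genes with a log2 fold change of at least 1 in size are named, at most 5 a list; exceptions are marked. Alternatives were another pseudocount, a filter at a mean of 1 FPKM, 2 scalings, a mean-variance trend, mouse number as a block, each mouse left out, the main transcript alone and the 2-fold criterion.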

Additional observations from a re-analysis of the deposited data

Results flagged for a closer look

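In 94 groups of 6 mice, 6 single values lay far from the other 5 by Dixon's test, which flags about 1 in 20 groups by chance. Cxcl1 was 15.8 FPKM in PZH 3 and 4.08 to 5.93 in the other PZH mice. Cxcl2 was 0.136 in PZH 2 and 0 in the other PZH mice. Cxcr5 was 0.154 in PZH 6 and 0.364 to 0.438 in the others. Cxcl9 was 13.3 in Control 4 and 4.24 to 5.67 in the other control mice. Ccl19 was 0.700 in Control 4 and 0 to 0.191 in the others. Ccl22 was 1.42 in Control 5 and 0.671 to 0.869 in the others.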

How the results depend on the processing

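Of the 20 called members, 18 kept their call in each alternative that tested them apart from the 2-fold criterion, Ccl3 lost it in 11 of 20 and Ccl8 in 5 of 19, and 0 reversed. Ccr1l1 was gained with a pseudocount of 0.1, Ccrl2 without Control 2, and Cxcr4 without Control 2, without PZH 5 and with the block. Against 17 ligands and 3 receptors called, the 2-fold criterion with unadjusted P called 8 and 1, and a mean of at least 1 FPKM left 1 receptor called, since 12 receptors were under that mean and were not tested. Leaving out 1 mouse gave 15 to 17 ligands, 3 to 5 receptors (5 without Control 2) and 15 to 18 member transcripts. The mice share only a number. After the group mean of each gene was subtracted, same-numbered mice had correlations of -0.0732 to 0.0763. Of 12 mice, 2 correlated best with the mouse of their own number in the other group. With the mouse number as a replicate block, 15 ligands and 4 receptors were called, and 12 transcripts instead of 17. Leaving out PZH 2, Control 2 and Control 3 was chosen after seeing the data and gave 16 ligands and 3 receptors. Low FPKM limits members near 0, whose fold change moves with the pseudocount.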
